A study of Mus musculus with 24 samples.

Results

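A set of 10 genes of the pigment cell was followed through 24 skin libraries of CD-1 mice. The members were given as a list of names: Tyr, Tyrp1, Dct, Pmel, Mlana, Mitf, Slc45a2, Oca2, Mc1r and Asip. The list was chosen with earlier results of these data known. All 10 were found among the 18368 genes of the expression table, 9 of them by symbol and Asip, which the table lists under its allele symbol a, by its gene identifier. The 12 mice came from an in-house colony of this outbred stock and were 7 weeks old, and the labels place them in telogen, the resting phase of the hair cycle. Each mouse was shaved and received full-thickness punch wounds of 2 mm at a single site, a single wound on the cheek or a pair on the abdomen or back. At day 3 a wound and the unwounded skin next to it were taken from the same mouse, which gives 4 unwounded and 4 wound libraries each for abdomen, back and cheek. RNA came from whole flash-frozen tissue, so a lower value can mean fewer cells of a type or less RNA per cell, and these cannot be told apart.

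Melanocytes are pigment cells that arise from the neural crest. In haired mouse skin they sit mainly in the hair follicle, where stem cells in the upper follicle renew them and mature cells in the hair bulb make melanin only while the hair grows. MITF is the transcription factor that drives the pigment programme, and TYR, TYRP1 and DCT are the related enzymes that carry it out. PMEL builds the fibrils of the melanosome and MLANA assists in its formation, while SLC45A2 and OCA2 are transporters that set conditions inside the organelle. MC1R is the receptor for melanocortin at the cell surface, and ASIP (agouti), secreted by the dermal papilla of the follicle, is its antagonist. CD-1 is an albino stock, in which tyrosinase is inactive and melanocytes are present without pigment. That is background knowledge: the labels give no coat colour, and an expression table does not show the Tyr genotype.

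The start sites of the 3 enzyme genes are shown because these genes moved together across the libraries and share a sequence there. The windows hold 250 bases before and 50 bases after the start (RefSeq, GRCm38.p6), written 5′ to 3′ on the strand of the gene. Capitals mark the hexamer CATGTG or its reverse complement CACATG, together with the longest run common to all 3 windows, GTCATGTGCT, which contains it.
Tyr, chr7:87493463-87493762, minus strand: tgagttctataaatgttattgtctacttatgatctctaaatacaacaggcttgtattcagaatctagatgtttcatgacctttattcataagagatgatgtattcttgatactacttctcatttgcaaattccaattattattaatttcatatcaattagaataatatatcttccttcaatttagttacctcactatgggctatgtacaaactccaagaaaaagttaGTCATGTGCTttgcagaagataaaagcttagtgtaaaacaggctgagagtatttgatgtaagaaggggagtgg
Tyrp1, chr4:80833963-80834262, plus strand: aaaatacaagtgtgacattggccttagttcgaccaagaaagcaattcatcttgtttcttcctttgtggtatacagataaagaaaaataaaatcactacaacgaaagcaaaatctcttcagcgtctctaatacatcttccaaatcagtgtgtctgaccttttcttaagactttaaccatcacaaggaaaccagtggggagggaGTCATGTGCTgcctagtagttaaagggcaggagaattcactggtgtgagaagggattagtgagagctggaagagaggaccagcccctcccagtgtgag
Dct, chr14:118052197-118052496, minus strand: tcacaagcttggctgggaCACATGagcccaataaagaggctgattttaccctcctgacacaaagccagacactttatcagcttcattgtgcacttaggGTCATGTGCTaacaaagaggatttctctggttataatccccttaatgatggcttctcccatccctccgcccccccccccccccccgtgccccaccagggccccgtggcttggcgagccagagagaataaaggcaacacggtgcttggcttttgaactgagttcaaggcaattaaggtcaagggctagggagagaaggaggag
The shared run of 10 bases starts 23 bases before the start of Tyr, 48 before that of Tyrp1 and 152 before that of Dct. For Tyrp1, the start site that the window uses lies inside the gene span given below, and so does the run. It matches what is known as the M-box, a site that MITF can bind. Counted on both strands, it occurred in 61 of the 32851 windows of this length, or 0.186%, belonging to 42 genes. The hexamer CATGTG alone was found in 14.2% of windows, and besides the enzymes it occurred in those of Oca2 and Mc1r. The related hexamer CACGTG was found in 7.15% of windows and in none of these 3. None of the 3 windows of Mitf, nor that of Asip, held CATGTG, and Pmel, Mlana and Slc45a2 were not matched to a window. These are matches of letters, and no binding was measured.

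On the same build, Tyr spans chr7:87424771-87493512 and Oca2 chr7:56239593-56536518, and the others are Tyrp1 (chr4:80834123-80851736), Dct (chr14:118012790-118052246), Mitf (chr6:97807002-98021360), Pmel (chr10:128695888-128720238), Mlana (chr19:29697541-29708447), Slc45a2 (chr15:11000721-11029233), Mc1r (chr8:123407082-123410744) and Asip (chr2:154950599-155051012). Exons of Pmel share bases with Cdk2 and Dgka and those of Mc1r with Gm38092, all on the opposite strand, and those of Asip with Raly on the same strand. Whether the counting used strand is not given in the sources used here, so reads could be split between these genes.

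Expression was deposited as FPKM (fragments per kilobase of transcript and per unit of mapped fragments), a scale per length on which genes can be set side by side. The values of a library summed to between 490830 and 608888 FPKM. FPKM holds no fragment counts, so the number of fragments behind a value, and with it the counting error of low genes, is unknown. In the 12 unwounded libraries Dct had the highest level of the 10, with a median of 12.86 FPKM (5.16 to 26.29), above 70.04% of the genes in the table. Mlana followed with a median of 11 FPKM (6.9 to 16.98), then Mitf with 6.775 (4.18 to 8.28), Pmel with 5.25 (1.62 to 16.14) and Tyrp1 with 3.8 (0.98 to 11.54). Asip had a median of 1.345 FPKM (0.3 to 3.3). Tyr, the gene of the enzyme that limits melanin synthesis, was far below its relatives, with a median of 0.375 FPKM (0.16 to 2.54). Slc45a2 (median 0.135), Mc1r (0.095) and Oca2 (0.04 FPKM) were close to the lowest values the table can hold, and Oca2 was listed at 0 in 10 of all 24 libraries. Each neighbouring pair in this order overlapped in its range over the libraries. Compared within libraries, Pmel was above Tyrp1 in every unwounded library, and no other neighbouring pair kept its order in all of them.

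**Figure D1:**
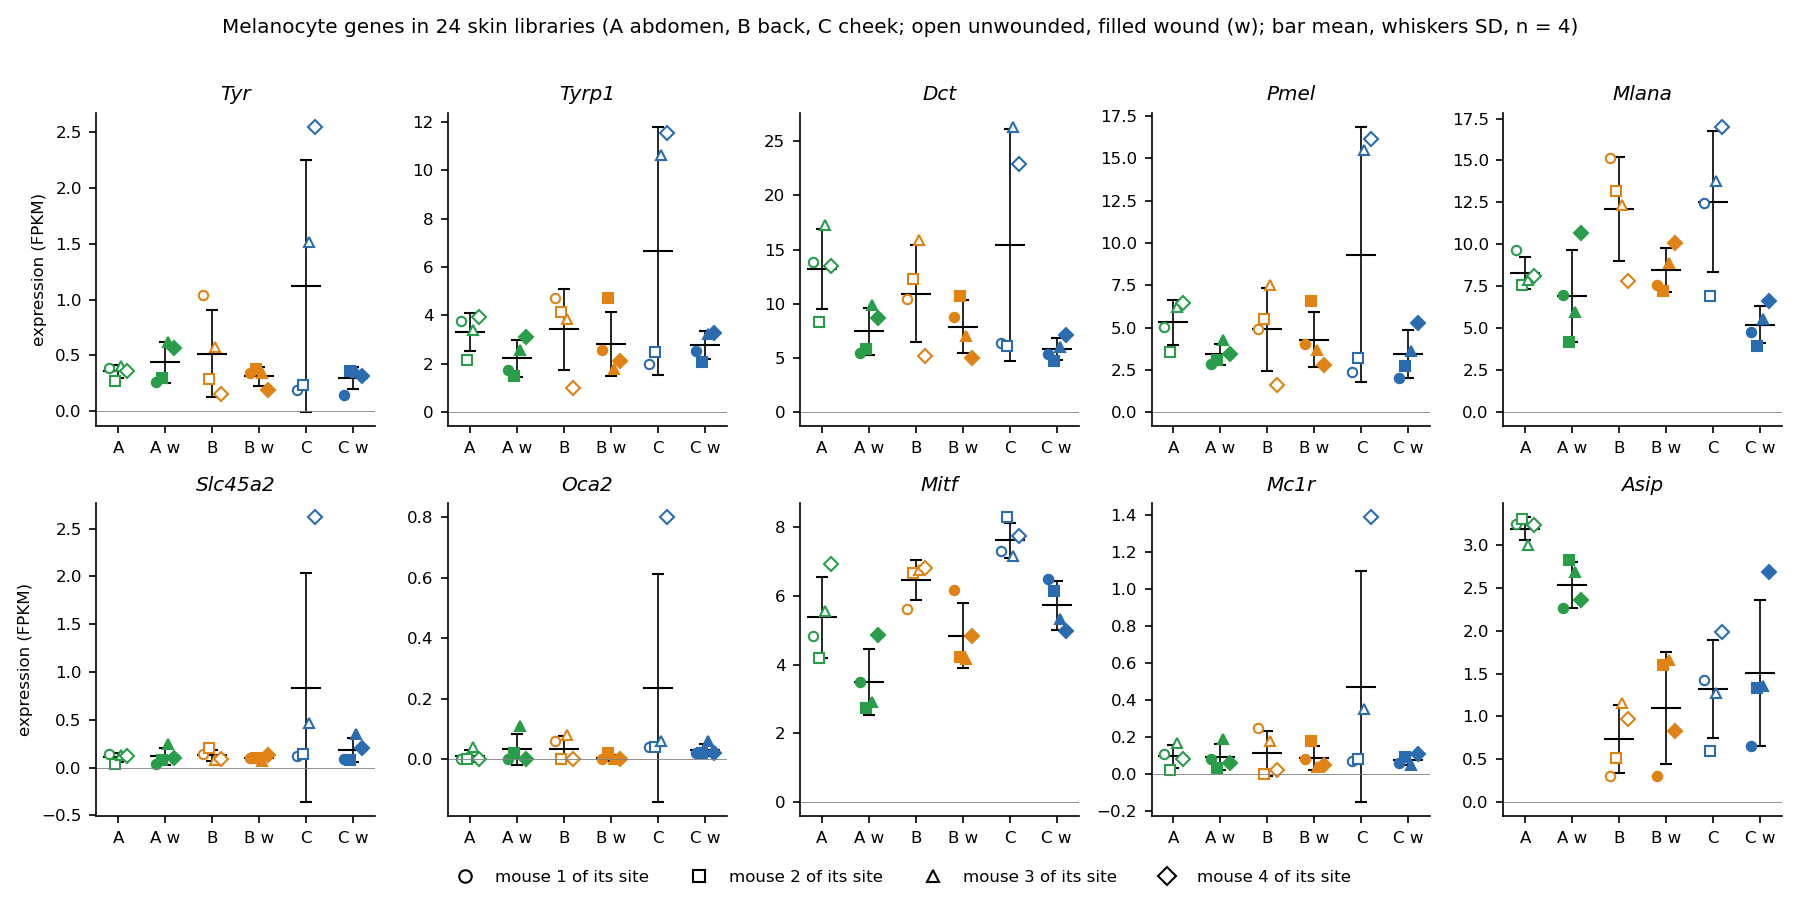
Expression (FPKM, linear axes that differ between panels) of the 10 genes in abdomen (A), back (B) and cheek (C), unwounded (open) and wound (filled, w), with a symbol for each mouse, a bar at the mean and whiskers of 1 SD (n = 4 libraries). For Tyr, Tyrp1, Dct, Pmel and Slc45a2 the unwounded cheek libraries of mouse 3 and mouse 4 stand above the other 22 libraries, while Mitf and Asip do not follow this pattern.

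The unwounded cheek libraries did not form a uniform group, and this bears on every cheek comparison. Pmel, for instance, was at 2.36 and 3.23 FPKM in cheek mice 1 and 2 but at 15.49 and 16.14 FPKM in cheek mice 3 and 4. Tyrp1 was at 2.01 and 2.47 FPKM in the former and at 10.62 and 11.54 FPKM in the latter, and Dct at 6.34 and 6.15 against 26.29 and 22.94 FPKM. In these 3 genes, mice 1 and 2 lay within the range of the other sites and mice 3 and 4 above it. Tyr was at 0.19 and 0.24 FPKM in mice 1 and 2 and at 1.51 and 2.54 FPKM in mice 3 and 4. Mlana differed less, with 12.46, 6.9, 13.79 and 16.98 FPKM in mice 1 to 4.

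Cheek mouse 4 was also the only library in which the least expressed members exceeded 0.5 FPKM. Slc45a2 was at 2.62 FPKM there, against 0.47 in cheek mouse 3 and 0.04 to 0.21 in the other 10 unwounded libraries. Mc1r was at 1.39 FPKM, against 0.35 in cheek mouse 3 and 0.0 to 0.25 in the others. Oca2 was at 0.8 FPKM, against 0.06 and 0.0 to 0.08. Of the 10 members, 7 had their highest value of all 24 libraries in unwounded cheek mouse 4, and Dct had it in unwounded cheek mouse 3. The exceptions were Mitf, highest in unwounded cheek mouse 2 at 8.28 FPKM, and Asip, highest in unwounded abdomen mouse 2 at 3.3 FPKM.

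The same 2 libraries stood apart in genes of the growing hair follicle. These are genes of hair shaft and inner root sheath keratins and of the signals of the hair bulb, which are low in resting follicles. All 19 genes of the list were highest in unwounded cheek mouse 4, where they summed to 7155.23 FPKM. Krt71, an inner root sheath keratin, was at 1651.05 FPKM in that library, and Krt85, a hair shaft keratin, at 314.25 FPKM. Cheek mouse 3 held little of these keratins (3.06 and 7.03 FPKM), but its level of Shh, the signal that drives growth of the hair germ, was 3.98 FPKM, next to 6.95 in mouse 4 and 0.02 to 1.1 in the other 10 unwounded libraries. The summed list reached 84.44 FPKM in cheek mouse 3, 112.78 in unwounded back mouse 2 and 43.62 in the wound of that back mouse, and lay between 15.28 and 26.48 FPKM in the remaining 20 libraries. Unwounded back mouse 2 did not share the high pigment values: Tyr, Tyrp1, Dct, Pmel and Mlana summed to 35.37 FPKM there, within the 15.74 to 40.2 FPKM of back skin, against 67.7 and 70.14 FPKM in cheek mice 3 and 4. In that back library Krt71 was at 27.26 FPKM, but Shh, Hoxc13, Msx2, Lef1 and Dlx3 were at 0.14, 3.41, 2.56, 1.58 and 9.15 FPKM. In cheek mouse 3 the latter genes were at 3.98, 8.27, 5.11, 3.09 and 22.95 FPKM, so the sums of these libraries cover unlike genes. The labels call these mice telogen-coordinated, and the hair cycle stage of a punch was not recorded, so its part in the pigment values was not tested.

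**Figure D2:**
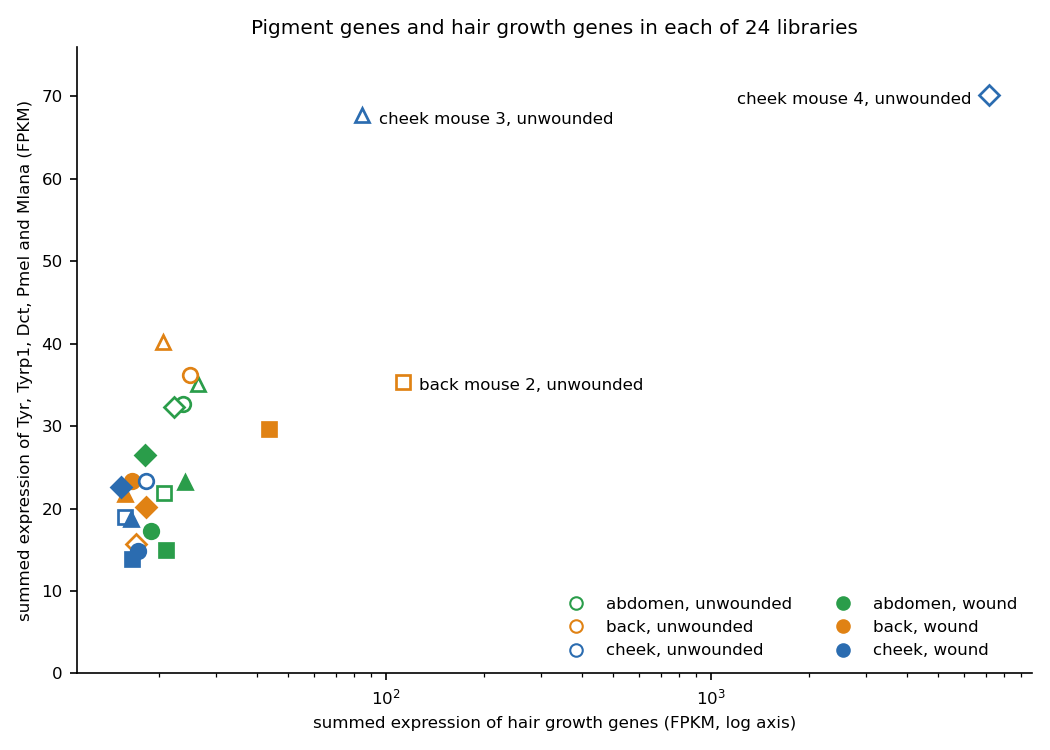
Summed expression of Tyr, Tyrp1, Dct, Pmel and Mlana (FPKM, vertical axis) against summed expression of 19 hair growth genes (FPKM, logarithmic horizontal axis), a point for each of the 24 libraries, open for unwounded and filled for wound. The unwounded cheek libraries of mice 3 and 4 lie at 67.7 and 70.14 FPKM of pigment genes and the other 22 at 13.87 to 40.2 FPKM. Unwounded back mouse 2 is marked for its hair sum, which came from other genes of the list than that of cheek mouse 3.

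Further genes of the melanocyte, although not members, were also high in one or both of these libraries. Slc24a5, a melanosomal cation exchanger, was at 2.37 and 4.06 FPKM in cheek mice 3 and 4 and at 0.19 to 1.36 in the other 10 unwounded libraries. Trpm1, a channel gene that MITF is known to activate, was at 1.72 and 5.45 FPKM against 0.24 to 0.79. The melanosome receptor gene Gpr143 was at 0.85 FPKM in mouse 4 against 0.0 to 0.19, a range that held the 0.18 FPKM of mouse 3. Genes of the lineage differed among themselves. Kit, the receptor that melanoblasts need to survive, was at 3.35 and 4.61 FPKM against 1.8 to 3.16, and its ligand gene Kitl at 9.97 and 8.33 against 4.87 to 7.72, so both libraries lay above the others. Ednrb, the endothelin receptor, was above the range of 19.36 to 27.13 FPKM in mouse 4 (28.74) and within it in mouse 3 (20.8), and Pax3, a factor of melanoblasts, was above 0.27 to 0.62 FPKM in mouse 3 (0.74) and within it in mouse 4 (0.33). Sox10, the neural crest factor upstream of Mitf, was within its range of 1.75 to 4.37 FPKM in both, at 2.99 and 1.95. Mitf itself was at 7.15 and 7.74 FPKM, within the 4.18 to 8.28 FPKM of the other 10.

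Across the 24 libraries, the deviations of log2(FPKM + 0.5) from the 6 group means varied together among Tyr, Tyrp1, Dct, Pmel and Mlana. Pearson's r lay between 0.491 and 0.947 for their 10 pairs (median 0.826). Without the unwounded libraries of cheek mice 3 and 4, with group means taken again, it lay between 0.28 and 0.887 (median 0.613, 22 libraries). Mitf, their activator, varied apart from them, with r between -0.089 and 0.1 for 5 pairs, and Asip had r between -0.417 and 0.35 with 6 other members. The Mitf value of whole skin sums over all cells and start sites of the gene. Here and in the comparisons below, it need not be the level of Mitf in melanocytes. The points share libraries and mice, so these are descriptions without a test.

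Among genes outside all lists, those whose deviations were most like the mean of the 5 pigment genes included Mycn (r = 0.955), Gli1 (0.914), Wif1 (0.911) and Ucp2 (0.908). Gli1 is a target of hedgehog signalling, Mycn is a growth-promoting transcription factor, and Wif1 is a secreted Wnt inhibitor. Without unwounded cheek mice 3 and 4 the r of these 4 genes lay between 0.775 for Gli1 and 0.932 for Wif1 (22 libraries). Mycn was at 5.87 FPKM in unwounded cheek mouse 3 and 10 FPKM in mouse 4, and its lowest value of all libraries, 0.4 FPKM, was that of unwounded back mouse 4, the unwounded library with the lowest pigment sum (15.74 FPKM).

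Whether the skin of different sites differed in pigment genes before injury was asked in the 12 unwounded libraries, with limma on log2(FPKM + 0.5) and Benjamini-Hochberg adjustment over the 13956 genes that reached 0.5 FPKM in 4 or more libraries. Of the 10 members, 7 passed this filter, and Slc45a2, Oca2 and Mc1r did not. Asip was the only member called between sites. It was at 3.24, 3.3, 3.0 and 3.23 FPKM in the 4 abdomen mice and at 0.3, 0.51, 1.16 and 0.97 FPKM in the 4 back mice. The groups did not overlap, and the abdomen values lay close together. The difference, back minus abdomen, was -1.64 ± 0.26 (log2 scale, SE, limma adjusted p = 0.00741; exact permutation of FPKM, two-sided, p = 0.029, the smallest that 4 against 4 libraries can give). The median of all genes in this comparison was -0.12, and with median-ratio scaling between libraries Asip still differed by -1.55 (adjusted p = 0.0135). Across all genes, 2.67% were called in either direction and 13.3% had libraries that did not overlap. The call held with each mouse left out (adjusted p between 0.0039 and 0.0315).

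In cheek, Asip was at 1.42, 0.6, 1.27 and 1.99 FPKM, also below all 4 abdomen libraries. The difference to abdomen was -1.08 ± 0.26 on the log2 scale (limma adjusted p = 0.0465), in a comparison with 2.57% of genes called and 10.6% without overlap. This call sits at the threshold: it was lost when any of 9 single mice was left out, among them each abdomen mouse, with adjusted p up to 0.132, while the difference lay between -0.86 and -1.12. It was also lost with median-ratio scaling (-1.08, adjusted p = 0.0529), a pseudocount of 0.1 FPKM (0.0809), no filter on low values (0.0655) and plain moderation without trend (0.0517). Cheek and back, where Asip differed by 0.56 ± 0.26 on the log2 scale (limma adjusted p = 0.232), gave no call among the members, against 1.05% of all genes, with 14.6% not overlapping. In pigmented mice with a pale belly, Asip is known to be expressed more on the belly than on the back, from a promoter used only there. The table holds a single value per gene, so transcripts of separate promoters were not resolved.

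None of the enzyme and melanosome genes was called between sites in unwounded skin. Dct, for example, was at 13.83, 8.36, 17.28 and 13.46 FPKM in abdomen and at 10.42, 12.25, 15.91 and 5.16 FPKM in back. The largest fitted difference among them was that of Tyrp1 for cheek minus back, 0.67 ± 0.57 (limma adjusted p = 0.509), and its SE carries the spread between the cheek mice. Mitf was lowest in abdomen, at 4.83, 4.18, 5.55 and 6.91 FPKM, next to 5.6, 6.66, 6.74 and 6.81 in back and 7.3, 8.28, 7.15 and 7.74 in cheek. The cheek libraries lay above all others. Over all genes, 10.6% had libraries that did not overlap between cheek and abdomen, and 14.6% between cheek and back. Mitf differed by 0.49 ± 0.13 between cheek and abdomen (limma adjusted p = 0.0714), which missed the threshold. It passed without abdomen mouse 4 (adjusted p = 0.0191).

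The wounds were then compared with the unwounded skin of the same mice, in a single model with a term for each mouse and a wound effect for each site, over the 14423 genes that passed the filter in the 24 libraries. The same 7 members were tested. Dct was lower in the wound of every mouse, 12 of 12, which held for 9.81% of the genes tested. Mitf was lower in 11 of 12 mice and Mlana and Pmel in 10 of 12, and 26.2% of genes tested were lower in at least 10. Tyrp1 and Slc45a2 were lower in 9 mice. Tyr was lower in 6 and higher in 6, and Asip lower in 6, higher in 5 and equal in 1.

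**Figure D3:**
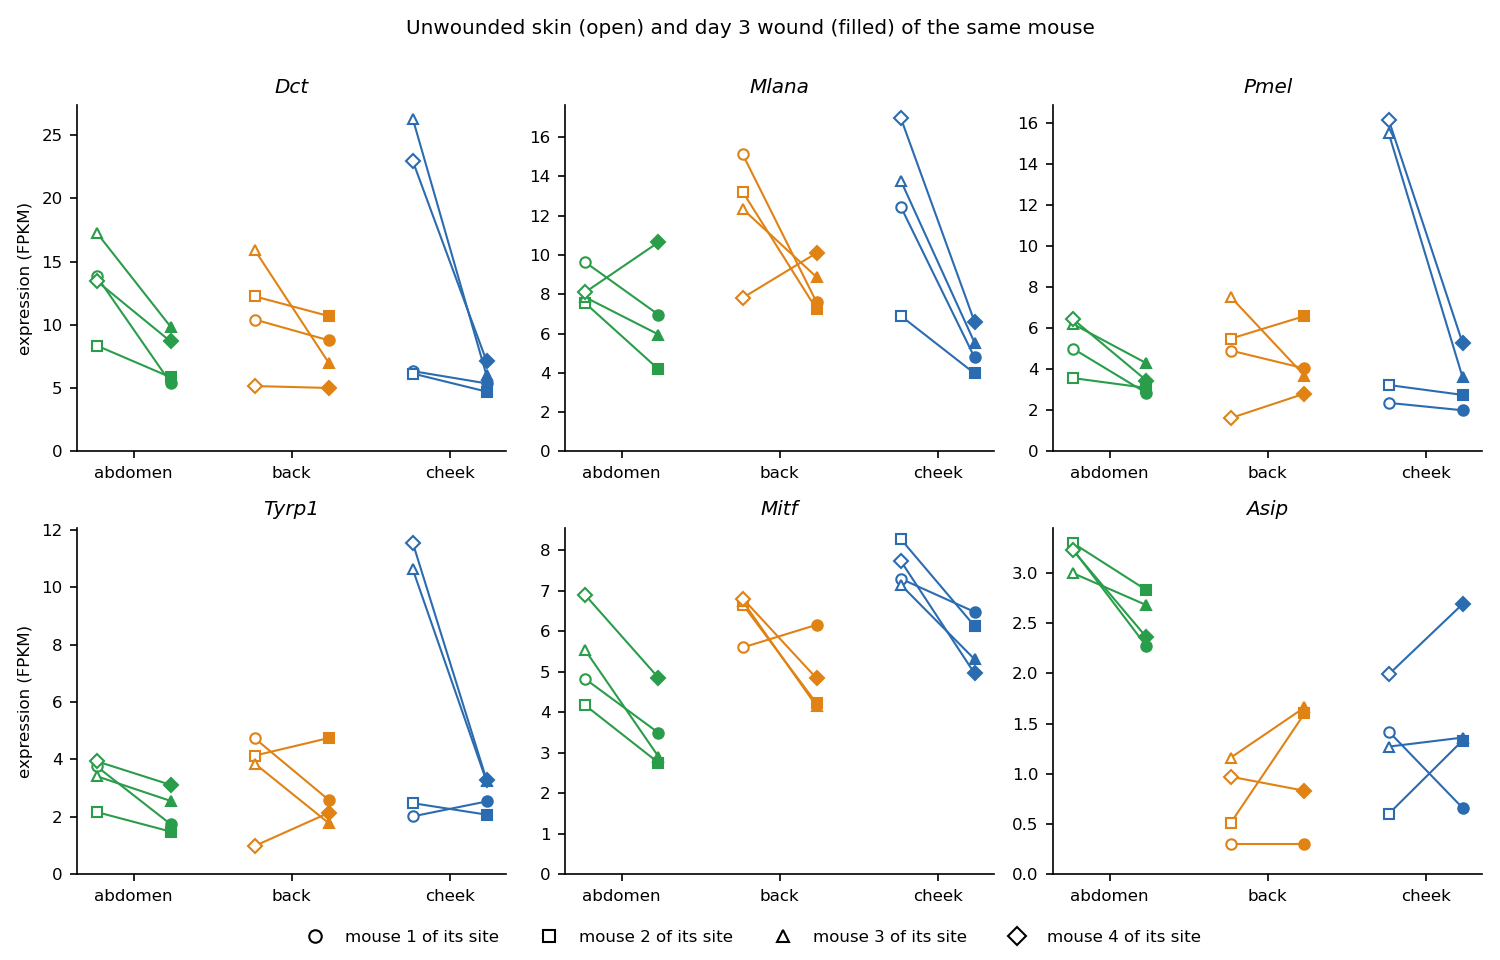
Expression (FPKM, linear axes from 0) of 6 members in unwounded skin (open) and in the day 3 wound (filled) of the same mouse, joined by a line, with a symbol for each of the 4 mice of a site. The lines of Dct run down in all 12 mice, and the steepest are those of cheek mice 3 and 4, which end at 6.0 and 7.13 FPKM.

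In cheek, 4 members fell with wounding: Mlana, Dct, Pmel and Mitf. In the wounds Dct was at 5.37, 4.72, 6.0 and 7.13 FPKM in mice 1 to 4, and its log2 change was -1.06 ± 0.28 (limma adjusted p = 0.0133). Pmel was at 2.0, 2.75, 3.62 and 5.29 FPKM in the wounds, a change of -0.97 ± 0.30 (limma adjusted p = 0.0261). The wounds of mice 3 and 4 thus lay near those of mice 1 and 2, unlike the unwounded skin beside them. Mlana was at 4.78, 3.97, 5.54 and 6.6 FPKM, below all 4 unwounded cheek libraries, with a change of -1.14 ± 0.21 (limma adjusted p = 0.00126). Tyr (-0.75 ± 0.29, limma adjusted p = 0.0587) and Tyrp1 (-0.80 ± 0.34, limma adjusted p = 0.0853) did not pass. Lower calls made up 16.9% of all genes in this comparison and higher calls 19.7%.

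The cheek count depended on mice 3 and 4. Mlana alone was called without cheek mouse 3, without cheek mouse 4 or without both, a step chosen after the hair genes were seen. With both left out, Mlana changed by -1.01 ± 0.32 (limma adjusted p = 0.0411), whereas Dct changed by -0.28 ± 0.24 (limma adjusted p = 0.413), Pmel by -0.20 ± 0.29 (limma adjusted p = 0.657), Mitf by -0.28 ± 0.18 (limma adjusted p = 0.271) and Tyrp1 by 0.03 ± 0.35 (limma adjusted p = 0.957). The hair growth genes were also lower in the wounds of these mice, with sums of 16.4 FPKM in mouse 3 and 15.28 in mouse 4 against the 84.44 and 7155.23 FPKM of their unwounded skin. Krt71, at 1651.05 FPKM in unwounded cheek mouse 4, was at 0.05 FPKM in the wound of that mouse. Without the mouse terms, too, Mlana was the only member called in cheek.

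**Figure D4:**
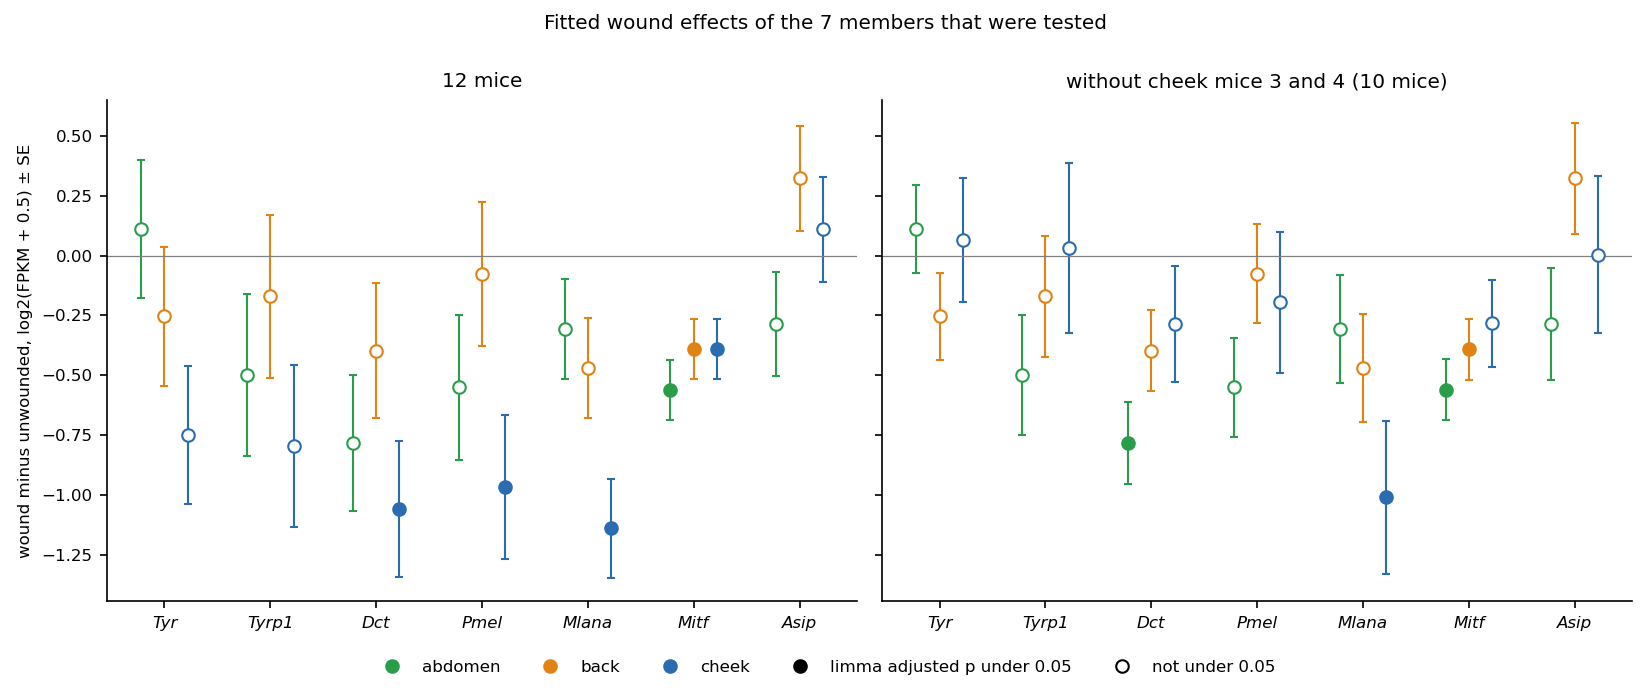
Fitted wound effects (wound minus unwounded, log2(FPKM + 0.5), with SE) of the 7 tested members at each site, filled where the limma adjusted p is under 0.05, for all 12 mice (left) and without cheek mice 3 and 4 (right). Dct and Pmel in cheek move from -1.06 and -0.97 to -0.28 and -0.20, while Mlana is at -1.01 and the effects in back keep their values.

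In abdomen, Mitf was the only member called. It was at 3.49, 2.75, 2.9 and 4.85 FPKM in the wounds, lower than the unwounded skin in each of the 4 mice, and changed by -0.56 ± 0.12 (limma adjusted p = 0.00505), with every mouse left out in turn an adjusted p between 0.0015 and 0.0321. Dct was at 5.42, 5.86, 9.86 and 8.69 FPKM, also lower in each of the 4 mice, with a change of -0.78 ± 0.28 (limma adjusted p = 0.0532). Without cheek mice 3 and 4 the same change had an SE of 0.17 and an adjusted p of 0.00595. Tyrp1 and Pmel were lower in 4 of 4 abdomen wounds as well, by 0.50 ± 0.34 and 0.55 ± 0.30 on the log2 scale (limma adjusted p = 0.277 and 0.181). Exact sign changes within the 4 mice of a site cannot give a p under 0.125, which Dct, Tyrp1, Pmel, Mitf and Asip reached here. Across all genes 16.0% were called lower and 16.9% higher.

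In back, too, Mitf was the only member called, at 6.16, 4.22, 4.15 and 4.84 FPKM in the wounds and lower in 3 of 4 mice, with a change of -0.39 ± 0.12 (limma adjusted p = 0.0213). The call was lost without back mouse 2, 3 or 4 (adjusted p = 0.103, 0.109 and 0.0683), with changes of -0.32, -0.31 and -0.37. Mlana, at 7.6, 7.24, 8.88 and 10.1 FPKM in the wounds, changed by -0.47 ± 0.21 (limma adjusted p = 0.082), and passed without back mouse 4 (adjusted p = 0.0102), whose unwounded library had the lowest pigment gene sum of the unwounded skin. Here 17.9% of all genes were called lower and 28.0% higher. Mitf in cheek wounds was at 6.48, 6.13, 5.31 and 4.96 FPKM and changed by -0.39 ± 0.12 (limma adjusted p = 0.0274). That call was lost without cheek mouse 2, 3 or 4 (adjusted p = 0.0822, 0.0768 and 0.1), while the change stayed at -0.38, -0.39 and -0.32.

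Over the 7 members tested, abdomen had a median log2 change of -0.50, back of -0.25 and cheek of -0.80, next to -0.015, 0.066 and 0.012 over all tested genes. A size of wound effect that differs between sites was found for none of them in the moderated F test of limma, which called 0.0208% of all genes (3 genes). The smallest limma adjusted p among them, over all genes, was 0.34, for Mlana. The larger fall of the cheek values is therefore not shown to be particular to cheek.

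Wounds hold other cells than the skin beside them, and the markers of several moved with the wound effect. The 5 neutrophil markers summed to between 8.18 and 37.55 FPKM in unwounded skin and to between 344.0 and 2387.79 in wounds, and all 5 were called higher at each site. The 7 macrophage markers summed to 484.93 to 1029.0 FPKM without a wound and to 1118.33 to 2336.97 with one. Of these 7, 5 were called higher and 1, Cd163, lower in abdomen wounds, and 6 were called higher both in back and in cheek wounds. The 5 markers of epidermal keratinocytes summed to between 5395.35 and 10167.44 FPKM in unwounded skin and to between 10094.9 and 18236.33 in wounds. Schwann cell markers, also of neural crest origin, summed to 70.74 to 403.12 FPKM and to 26.52 to 163.02 in wounds, and of 7 such genes 2 were called lower in abdomen wounds, 4 in back wounds and 0 in cheek wounds. Over all genes, 16.0%, 17.9% and 16.9% were called lower and 16.9%, 28.0% and 19.7% higher in abdomen, back and cheek wounds. The sum of the 10 members lay between 23.63 and 84.68 FPKM in unwounded skin and between 20.62 and 35.77 in wounds. No marker of these lists was at 0 in a whole group, and the part of these cells in the pigment values was not tested.

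Between wounds of different sites, Mitf was the only member called. It was higher in cheek than in abdomen wounds by 0.66 ± 0.17 (log2, limma adjusted p = 0.0305), and the groups did not overlap, in a comparison with 10.8% of genes called and 19.0% without overlap. Leaving out any of 5 single mice, or cheek mice 3 and 4 together (adjusted p = 0.0777), lost this call, but the difference was 0.57 to 0.69 without the single mice and 0.80 without both cheek mice. Asip was again highest in abdomen by its median, with 2.27, 2.83, 2.68 and 2.36 FPKM in abdomen, 0.3, 1.6, 1.66 and 0.83 in back and 0.66, 1.33, 1.36 and 2.69 in cheek. Cheek and back wounds overlapped in Asip and differed by 0.35 (log2, limma adjusted p = 0.543), or by -0.03 without cheek mice 3 and 4. The abdomen and back wounds did not overlap in Asip (-1.03 ± 0.33, limma adjusted p = 0.146), and no member was called between them, against 1.27% of genes called and 9.16% not overlapping. Cheek wounds lay below back wounds in Mlana without overlap (-0.66 ± 0.23, limma adjusted p = 0.106), and again no member was called, with 2.50% of genes called and 21.3% not overlapping. Tyr was below the filter in the wound libraries and was not tested there.

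Asip was not called with wounding at any site. Its change was -0.29 ± 0.22 in abdomen (limma adjusted p = 0.335), where the wound was lower in 4 of 4 mice, 0.32 ± 0.22 in back (adjusted p = 0.247) and 0.11 ± 0.22 in cheek (adjusted p = 0.727). The genes most like Asip across libraries had a lower likeness than those of the pigment genes: Azin2 (r = 0.681), Pcdhgb1 (0.664), Slco1a5 (0.643), Dhx16 (0.631) and Hist1h2ag (0.626).

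The wider pathway was described through 3 lists. Of the 7 genes of melanocyte specification and survival, 6 were tested for wounding. Of these, 2 were called lower in abdomen, 1 lower and 1 higher in back, and 2 lower in cheek, and their median log2 change was -0.32, -0.095 and -0.05 in this order. Over all genes, 16.0%, 17.9% and 16.9% were called lower in the same order, and 28.0% were called higher in back. Edn3, the endothelin that acts on melanoblasts, fell at all 3 sites, by 0.50 ± 0.17, 0.95 ± 0.17 and 0.69 ± 0.17 on the log2 scale for abdomen, back and cheek (limma adjusted p = 0.0348, 0.000588 and 0.00608). The abdomen call was lost without abdomen mouse 1 or 4. In back, for instance, Edn3 was at 0.74, 1.35, 0.78 and 0.84 FPKM in unwounded skin and at 0.25, 0.36, 0.12 and 0.2 FPKM in wounds. Its receptor gene Ednrb fell in abdomen, from at least 19.36 FPKM in unwounded skin to at most 16.97 FPKM in wounds (-0.76 ± 0.19, limma adjusted p = 0.0109), and in cheek (-0.59 ± 0.19, limma adjusted p = 0.0305), and changed in back by 0.01 ± 0.19 (limma adjusted p = 0.979). The abdomen call was lost without abdomen mouse 3 and the cheek call without cheek mouse 2, 3 or 4, and Ednrb is also expressed by other cells of the skin. Snai2 was called higher in back alone, by 0.31 ± 0.11 (limma adjusted p = 0.0391), a call lost without back mouse 1, 2 or 3, with median-ratio scaling (0.23, adjusted p = 0.0874), quantile normalization (0.20, adjusted p = 0.137) and no filter (adjusted p = 0.0506), without the mouse terms (adjusted p = 0.0689) and on the 8 back libraries alone (adjusted p = 0.0693).

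Sox10, the lineage factor, was not called at any site: its changes were -0.33 ± 0.28 in abdomen, -0.48 ± 0.28 in back and -0.08 ± 0.28 in cheek (limma adjusted p between 0.172 and 0.855). Kit changed by -0.25 ± 0.12, 0.19 ± 0.12 and 0.08 ± 0.12 in the same order, and Kitl, its ligand, by -0.30 ± 0.13, -0.20 ± 0.13 and -0.02 ± 0.13, all above the threshold. Between wounds, Kitl and Kit were higher in cheek than in abdomen by 0.80 ± 0.14 and 0.53 ± 0.11 (limma adjusted p = 0.00811 and 0.0152), and without cheek mice 3 and 4 the differences were 0.83 and 0.42 and no longer passed (adjusted p = 0.0532 and 0.114). Kitl is also made by keratinocytes and fibroblasts, and Kit by mast cells, whose 7 markers summed to 147.02 to 194.07 FPKM in abdomen wounds and to 173.78 to 363.22 in cheek wounds. Of these 7, 1 was called higher in cheek than in abdomen wounds. Of 5 keratinocyte markers 0 were called, and of 4 fibroblast markers 1, higher in cheek, where 10.8% of all genes were called. The part of these cells in the differences was not tested.

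Among the 21 genes of melanosome formation and transport, 20 of which were tested, most calls were higher in wounds. In wounds 3 rose in abdomen and 0 fell, 9 rose in back and 0 fell, and 7 rose in cheek and 1 fell, beside the 16.9%, 28.0% and 19.7% of all genes called higher. Their median log2 change was 0.03, 0.24 and 0.19. Tpcn2, an ion channel of melanosomes and lysosomes, rose in abdomen from a range of 2.57 to 4.04 FPKM to a range of 5.17 to 7.92 FPKM (0.79 ± 0.15, limma adjusted p = 0.00182), and by 1.13 ± 0.15 in back and 1.14 ± 0.15 in cheek. Gpnmb, a melanosome protein that macrophages also make in quantity, rose by 0.68 ± 0.17, 0.69 ± 0.17 and 0.86 ± 0.17 (limma adjusted p = 0.00848, 0.00486 and 0.00166). Myo5a, the motor that carries melanosomes, rose at all 3 sites (0.34 ± 0.12, 0.45 ± 0.12 and 0.45 ± 0.12), though the call was lost in abdomen with any abdomen mouse left out and in cheek without cheek mouse 2 (0.37, adjusted p = 0.0636). Rab32 and Hps1, of lysosome-related organelles, rose in back and cheek, Rab32 by 0.52 ± 0.11 and 0.61 ± 0.11 and Hps1 by 0.57 ± 0.11 and 0.44 ± 0.11. Ap3d1, an adaptor subunit for such organelles, rose in back by 0.32 ± 0.07 (limma adjusted p = 0.0019). Most of these genes serve lysosome-related organelles of many cells. The summed macrophage and neutrophil markers were also higher in wounds, and the part of these cells in the changes was not tested. The only gene that fell was Trpm1 in cheek (-0.95 ± 0.30, limma adjusted p = 0.0247), and without cheek mice 3 and 4 its change was -0.08 (adjusted p = 0.781).

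Of the 7 genes of melanocortin signalling and pheomelanin, 4 were tested. Slc7a11, the cystine transporter that feeds pheomelanin synthesis and the antioxidant response, rose in back, from at most 0.84 FPKM in unwounded skin to at least 1.77 FPKM in wounds (1.28 ± 0.28, limma adjusted p = 0.00294), and in cheek, from at most 1.16 FPKM to at least 2.07 FPKM (1.51 ± 0.28, limma adjusted p = 0.00143). In abdomen it changed by 0.67 ± 0.28 (limma adjusted p = 0.0856). Pomc, the precursor of the melanocortins, was at 0.0 to 0.48 FPKM throughout and was not tested. Between sites, 3 further calls fell on these lists, each lost without single mice and those of Myo5a and Lyst also with median-ratio scaling: Rab27a, lower in unwounded cheek than abdomen (-0.59 ± 0.13, limma adjusted p = 0.0352), Myo5a, higher in cheek than abdomen wounds (0.40 ± 0.11, limma adjusted p = 0.0388), and Lyst, higher in cheek than back wounds (0.69 ± 0.16, limma adjusted p = 0.0493). Over all genes, 2.57%, 10.8% and 2.50% were called in these comparisons.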

How the data were processed

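RNA-seq was performed for the authors by a sequencing provider. The deposited FPKM values were made per library, with reads mapped to GRCm38/mm10 by HISAT2 and to its transcripts by Bowtie2 (version 2.2.5) and quantified with RSEM (version 1.2.12), and were rounded to 2 decimals, with no scaling between libraries stated. A further table holds the log2 fold change and adjusted p-value of each of the authors' own contrasts, computed by DESeq2, and was not used. All 24 value columns were matched to a labelled sample, and 0 were left unused. FPKM carries no counts, so the depth per library is unknown.

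For testing, 0.5 was added to each FPKM value and the log2 taken. Models were fitted with limma 3.58.1 (R version 4.3.3, statmod version 1.5.0) using trended and robust moderation. A gene entered a fit when it reached 0.5 FPKM in 4 or more of the libraries used, and p-values were adjusted over all genes tested by the Benjamini-Hochberg method, with a threshold of 0.05. A fold change on this scale understates that of low genes. Sites were compared within the 12 unwounded or the 12 wound libraries. Wound effects were fitted over 24 libraries with a term for each mouse, since the labels give both libraries of a mouse. The deviations of these 2 libraries from their group means correlated with r over 0.1 in 11 of 12 mice (median 0.348, lowest -0.0299, highest 0.533). A two-sided exact permutation test was added for single members. The model was tested on simulated data before use.

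The members and gene lists were chosen with earlier results of these data known. The genes named are the 10 members, from each of 3 pathway lists up to 6 genes per comparison with an adjusted p under 0.05 and the largest change, Sox10, Kit, Kitl, Ednrb and Gpnmb, and the 5 genes most alike to the pigment genes, of which 1 is not reported here, and to Asip. Slc24a5, Gpr143, Pax3, Krt71, Krt85, Shh, Hoxc13, Msx2, Lef1, Dlx3 and Pomc were chosen for naming with their values in view. Marker lists of growing hair follicle, keratinocytes, fibroblasts, Schwann cells, mast cells, macrophages, neutrophils and skeletal muscle were summed per library. Alternatives were other pseudocounts, filters, scalings and model terms, a threshold of 0.001, each mouse left out, and cheek mice 3 and 4 left out, the last chosen after seeing the data.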

Additional observations from a re-analysis of the deposited data

Results flagged for a closer look

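In each group of 4 libraries the distance of the highest or lowest library from its nearest neighbour was compared with the range of the group, for the 10 members. Of 60 groups, 6 had a library beyond the critical value of Dixon's ratio, which about 1 in 20 groups of independent normal values would pass. These groups share libraries, and in some Oca2 groups ties among the other values fix the ratio at 1.0. That rate therefore cannot be applied to the count of 6. In unwounded cheek, mouse 4 was the highest in Slc45a2, at 2.62 FPKM with the next library at 0.47, and in Oca2, at 0.8 FPKM with the next at 0.06. This is also the library in which the hair growth genes summed to 7155.23 FPKM. In unwounded back, mouse 1 was the lowest in Mitf, at 5.6 FPKM with the next at 6.66. The remaining cases were values of Oca2 near the rounding of the table: 0.04 FPKM in unwounded abdomen mouse 3, 0.02 FPKM in the wound of back mouse 2 and 0.06 FPKM in the wound of cheek mouse 3.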

How the results depend on the processing

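Over the wound and site effects of the named genes, other settings kept direction and side of the threshold in 678 cases, lost a call in 74, gained a call in 14 and reversed the sign in 6. With each mouse left out the counts were 771, 60, 10 and 11. The number of members changed by wounding in abdomen, 1 as reported, was 2 with quantile normalization, with median-ratio scaling, with plain moderation (no trend, not robust) and with cheek mice 3 and 4 left out, 4 with each site fitted on its own 8 libraries with the replicate block, and 0 at the threshold of 0.001. In back, 1 as reported, it was 2 with median-ratio scaling or quantile normalization and 0 at 0.001. In cheek, 4 as reported, it was 1 without the replicate block (no term for the mouse), 2 on its own 8 libraries, 6 with quantile normalization (with Tyr and Tyrp1), 1 with cheek mice 3 and 4 left out and 0 at 0.001. The members differing between sites in unwounded skin, 1 as reported, were 2 with all 24 libraries in a single model and 0 at 0.001, and those in wounds, 1 as reported, were 0 at 0.001 and 0 with cheek mice 3 and 4 left out. The wound effect differed between sites for 0 members under every setting run. Leaving out a mouse gave between 1 and 2 members in abdomen, 0 and 1 in back, 1 and 6 in cheek, 1 and 2 between sites in unwounded skin and 0 and 1 between sites in wounds. The count of 6 in cheek was without cheek mouse 1, and that of 1 without cheek mouse 3 or 4, that of 0 in back without back mouse 2 or 3, that of 2 in unwounded skin without abdomen mouse 4, and that of 2 in abdomen without back mouse 3 or cheek mouse 1, 2 or 3. The count of 0 between wounds was reached without abdomen mouse 2 or 3 or cheek mouse 1, 2 or 3. Mouse numbers shared across sites are only numbers, and a block on them changed 0 of these counts, though Asip in unwounded cheek minus abdomen then had an adjusted p of 0.0557.

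With cheek mice 3 and 4 left out, the sign reversed for the cheek wound effects of Tyr (0.065), Tyrp1 (0.031) and Kitl (0.135) and for Asip in cheek minus back wounds (-0.025). That of Ednrb in back reversed with median-ratio scaling (-0.066) and quantile normalization (-0.108). Single mice left out reversed effects whose values ran from -0.504 to 0.083 for Tyrp1 in back, -0.315 to 0.211 for Pmel in back, -0.099 to 0.388 for Asip in cheek, -0.5 to 0.033 for Sox10 in abdomen, -0.144 to 0.012 for Sox10 in cheek, -0.08 to 0.058 for Kitl in cheek and -0.105 to 0.265 for Ednrb in back. None of these effects was called, and the cause was not tested. Depth is unknown, so the low values of Tyr, Slc45a2, Mc1r and Oca2 carry a counting error that cannot be stated.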

Other observations

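The muscle and fibroblast markers also differed between libraries. The 5 skeletal muscle markers summed to between 365.97 and 11155.12 FPKM in unwounded abdomen, to between 10919.71 and 17330.16 in back and to between 8403.22 and 16600.07 in cheek, and the abdomen mice thus covered the widest range. The 4 fibroblast markers summed to between 5194.13 and 12997.34 FPKM in unwounded skin and to between 3447.44 and 7350.32 in wounds, with 3 of 4 called lower in abdomen wounds, and 2 lower and 1 higher both in back and in cheek wounds. Of the muscle markers, 4 of 5 were called lower in back wounds (limma). Beside these counts, 16.0%, 17.9% and 16.9% of all genes were called lower in abdomen, back and cheek wounds, and 28.0% and 19.7% higher in back and cheek. The wound of back mouse 2 held 43.62 FPKM of hair growth genes, against 112.78 in the unwounded skin of that mouse.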
